A study of Mus musculus with 6 samples.

Results

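The miR-99/100 and miR-125 families are 2 groups of microRNAs whose hairpins share 3 genomic clusters, each with a let-7 hairpin between them. Every row of the count table named miR-99a, miR-99b, miR-100, miR-125a or miR-125b was taken, which gave 11 of the 1028 mature microRNAs listed. The 11 rows are the 5p and 3p arms of miR-99a, miR-99b, miR-100 and miR-125a, the 5p arm of miR-125b, and the 3p arms of its 2 hairpin copies. All 11 passed the filter on low counts, which 460 microRNAs of the table passed.

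The libraries came from a mouse epicardial cell line, epicardium being the cell layer that covers the heart, grown in high-glucose medium with fetal bovine serum. The control group, EV, was transduced with an empty-vector lentivirus. The KO group was transduced with a lentivirus for CRISPR/Cas9 knockout of Hdac3, which encodes a histone deacetylase. Each group had 3 small-RNA libraries, numbered 1 to 3. Both groups therefore share the cell line, the culture and a lentiviral transduction, and one line in culture is the whole model. The labels give neither the clonality of the transduced cells nor whether replicates were separate cultures. The p-values therefore cover only the spread among these libraries, and part or all of that spread may be technical. Small-RNA counts hold no Hdac3 transcript, and the knockout was therefore not checked here.

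A microRNA is cut from a hairpin, and either arm, the 5p or the 3p, can be loaded into an Argonaute protein. Bases 2 to 8 of the loaded strand, the seed, largely set which messenger RNAs it represses. The miR-99/100 family is known for targeting members of the mTOR and insulin-like growth factor pathways. miR-125b, the vertebrate relative of the worm lin-4 microRNA, is known for roles in proliferation, apoptosis and differentiation, and let-7 for repressing growth and RNA-binding genes such as Lin28.

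The mature sequences show which members can be expected to share targets and which reads belong to 1 hairpin only. They are RefSeq sequences on GRCm38.p6, written 5′ to 3′ with the seed in capitals, and 849 of the 1028 rows matched an entry by name. The 5p arms of the 3 miR-99/100 members carry 1 seed, ACCCGUA:
miR-99a-5p: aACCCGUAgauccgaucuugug
miR-100-5p: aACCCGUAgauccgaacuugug
miR-99b-5p: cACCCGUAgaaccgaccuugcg
The 5p arms of miR-125 carry another seed, CCCUGAG, which miR-351-5p from the X chromosome also carries, the 1 further row found among those with a matched sequence:
miR-125b-5p: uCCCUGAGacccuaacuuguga
miR-125a-5p: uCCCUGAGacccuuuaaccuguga
miR-351-5p: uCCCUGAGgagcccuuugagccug
The 3p arms of the 2 Mir125b copies differ, also in the seed, and are the only mature products that tell the copies apart:
miR-125b-1-3p: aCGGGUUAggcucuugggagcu
miR-125b-2-3p: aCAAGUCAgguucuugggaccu

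Counted from 1 at the 5′ end, miR-99a-5p and miR-100-5p differ by a single substitution, U16A, outside the seed. From miR-99a-5p to miR-99b-5p there are 4 substitutions, A1C, U11A, U16C and U21C, and again none of them lies in the seed. miR-125b-5p and miR-125a-5p share their first 13 bases, whereas miR-125b-5p and miR-351-5p share only their first 8. The 3p arms of Mir125b-1 and Mir125b-2 differ by G3A, G4A, U7C, C11U and G20C. The sources used here do not describe how the authors assigned reads that match several microRNAs. Some rows had identical mean CPM, such as miR-467a-5p and miR-467b-5p (211 each) and miR-126a-5p and miR-126b-3p (2.98 each). The microRNAs tested include these pairs. Whether reads of the 2 families were also counted in more than 1 row was not tested. The split between the near-identical miR-99a-5p and miR-100-5p is uncertain to that extent.

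The hairpins of Mir99a and Mir125b-1 show where the arms lie, with the mature arms in capitals (RefSeq, GRCm38.p6):
Mir99a: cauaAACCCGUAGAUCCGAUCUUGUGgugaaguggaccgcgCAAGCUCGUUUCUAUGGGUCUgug
Mir125b-1: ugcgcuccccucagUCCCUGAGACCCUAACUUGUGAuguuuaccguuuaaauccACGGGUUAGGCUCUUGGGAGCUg
In each hairpin the capitals nearer the 5′ end are the 5p arm, with 15 loop bases between the arms of Mir99a and 18 between those of Mir125b-1.

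The 3 clusters lie on the plus strand of GRCm38 (GENCODE vM21 annotation) and repeat the order miR-99 or miR-100, let-7, miR-125. On chromosome 16, Mir99a (chr16:77598936-77599000), Mirlet7c-1 (chr16:77599657-77599750) and Mir125b-2 (chr16:77646273-77646343) lie in introns of the noncoding host gene Mir99ahg and together span 47408 bp. On chromosome 9, Mir100 (chr9:41531425-41531504), Mirlet7a-2 (chr9:41536716-41536811) and Mir125b-1 (chr9:41581926-41582002) lie in introns of the noncoding genes 3110039I08Rik and Gm49317 and span 50578 bp. Mir125b-1 also overlaps an exon of the noncoding gene Gm28119. On chromosome 17, Mir99b (chr17:17830188-17830257), Mirlet7e (chr17:17830352-17830444) and Mir125a (chr17:17830812-17830879) are packed into 692 bp of the protein-coding gene Spaca6, the first 2 in an intron and Mir125a overlapping an annotated exon. Mature miR-125b-5p is made by both Mir125b copies, let-7a-5p and let-7c-5p each also come from a hairpin elsewhere, and counts of these 5p arms cannot be assigned to 1 cluster.

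**Figure D1:**
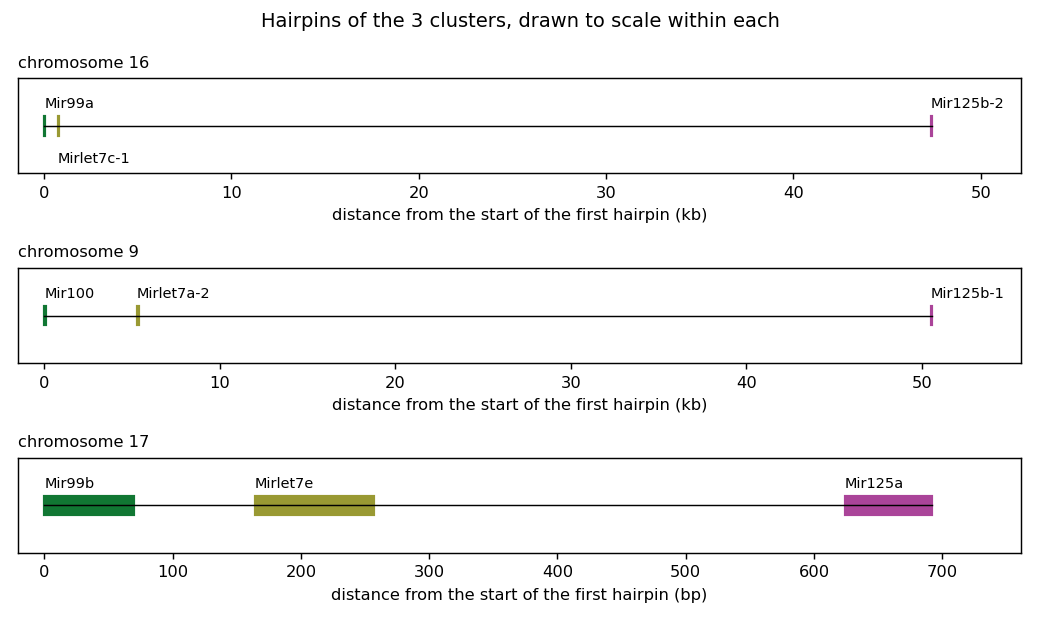
The 3 clusters, each drawn to its own scale as distance from the start of its first hairpin, with boxes or ticks for the hairpins. The axis is in kb for chromosomes 16 and 9 and in bp for chromosome 17. The chromosome 16 and chromosome 9 clusters span 47408 and 50578 bp, and the chromosome 17 cluster spans 692 bp.

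The 6 libraries held 11824881 to 13412774 counts, so 1 read was worth 0.0637 to 0.0892 CPM, where CPM are counts scaled to a common library total after correction by TMM factors. miR-21a-5p alone took 63.0% of the counts in EV 1 and 66.7 to 70.1% in the other libraries. No microRNA defines epicardium. All 6 listed mesenchymal microRNAs were present, at a summed 593902 CPM in EV 1 and 734845 to 842707 CPM elsewhere. Most of that sum was miR-21a-5p itself, a broadly expressed microRNA, at 513964 CPM in EV 1 and 654025 to 763066 CPM elsewhere, followed by miR-143-3p at 71240 to 82139 CPM. EV 3 and KO 2 stood apart. The red blood cell microRNA miR-451a was at 54.7 and 62.7 CPM in them and at 0.243 to 2.45 CPM in the other 4. The rest of the blood cell list did not share this. miR-144-3p, miR-142a-3p and miR-223-3p were at 0 in EV 3 and KO 2, and miR-142a-5p was at 0.178 and 0.319 CPM. The 3 neural microRNAs summed to 53.1 and 58.6 CPM in EV 3 and KO 2, against 11.4 to 33.4 CPM in the other 4. The 5 epithelial microRNAs summed to 41.4 to 50.0 CPM in EV and 25.3 to 27.3 CPM in KO, 2 of them passed the test, and miR-141-3p was at 0 in all 3 KO libraries. The groups also did not overlap in 3 lists without a called member: endothelial (2 microRNAs, 36.6 to 42.1 CPM in EV and 34.7 to 35.4 CPM in KO), muscle (3 microRNAs, 26.2 to 27.2 CPM and 20.9 to 24.9 CPM) and the liver microRNA miR-122-5p (0.408 to 0.637 CPM and 0.638 to 3.24 CPM). Within the endothelial and muscle lists the microRNAs went different ways. Most of the endothelial sum was miR-126a-3p (log2 fold change -0.17), whereas miR-126a-5p overlapped between the groups (0.17). Most of the muscle sum was miR-206-3p (25.4 to 25.9 CPM in EV, 18.8 to 22.5 CPM in KO). miR-1a-3p was higher in KO (0.828 to 1.25 CPM in EV, 1.75 to 2.35 CPM in KO), and miR-133a-3p was at most 0.0892 CPM. For miR-122-5p the gap was smaller than the worth of 1 read, and the 3.24 CPM was KO 1 alone. Of all single microRNAs tested, 29.1% did not overlap between the groups. The part of these differences in the results on the 2 families was not tested, and each member's log2 fold change is also given without EV 3 and KO 2. In a bulk library, fewer cells of a type and less of a microRNA per cell cannot be told apart.

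The 5p arms of miR-99 and miR-100 were among the most abundant microRNAs of the line. miR-99a-5p ranked 9th, miR-100-5p 10th, miR-99b-5p 13th and miR-125b-5p 18th of all microRNAs by mean CPM. All 11 rows together made up 2.66 to 3.70% of the counts of a library, and 8.78 to 10.01% of the counts other than miR-21a-5p. Ligation and gel selection of the products favour some small RNAs over others, so an order of levels between microRNAs is an order of sequenced reads. Below miR-125b-5p came miR-125a-5p at 353 to 452 CPM, miR-125b-1-3p at 247 to 308 CPM, miR-125b-2-3p at 189 to 235 CPM, miR-99b-3p at 172 to 238 CPM and miR-125a-3p at 18.9 to 24.5 CPM. miR-99a-3p, at 4.97 to 7.41 CPM, and miR-100-3p, at 1.83 to 2.94 CPM, were the least abundant. Over the 6 libraries, 2 neighbouring pairs in this order overlapped in CPM, namely miR-99a-5p with miR-100-5p and miR-125b-2-3p with miR-99b-3p.

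**Figure D2:**
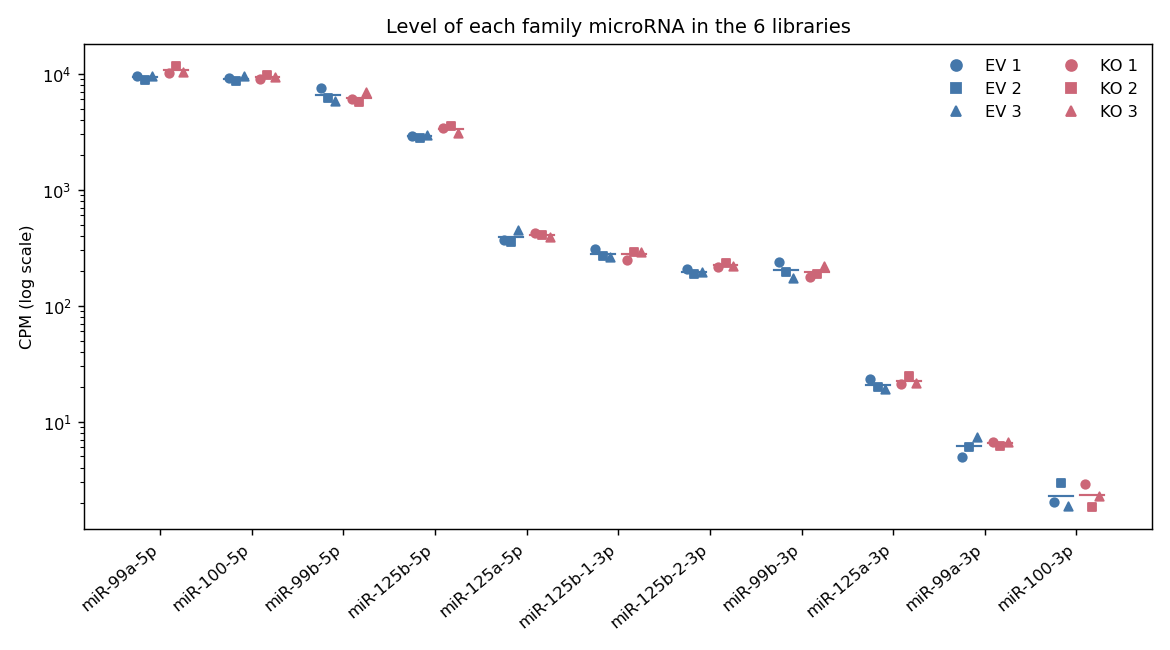
CPM (log axis) of the 11 members in each of the 3 EV and 3 KO libraries, 1 point per library. The 4 most abundant 5p arms sit between 2773 and 11631 CPM and miR-100-3p between 1.83 and 2.94 CPM, and within a member the groups lie close to each other.

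No member passed the test between KO and EV. edgeR's quasi-likelihood test called 0 of the 11 at an adjusted p under 0.05, where it called 7.61% of all 460 microRNAs tested. At an unadjusted p under 0.05 it gave 3 of the 11, against 23.0% of all tested, and the same 3 were the members whose KO libraries did not overlap the EV libraries in CPM, against 29.1% of all tested. DESeq2 and limma-voom each called 0 of the 11, where they called 10.4% and 8.26% of the table. The 11 log2 fold changes ran from -0.07 to 0.21 with a median of 0.05, beside a median of -0.01 over all tested, and 8 were above 0. Without EV 3 and KO 2, 0 of the 11 passed, where 18.7% of the microRNAs tested did.

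The 3 members with non-overlapping groups were miR-99a-5p, miR-125b-5p and miR-125b-2-3p, each slightly higher in every KO library than in every EV library. Their share of the 11 was near the share of all tested given above. The chromosome 16 hairpins make all 3, miR-125b-5p together with chromosome 9. The other arms of that cluster, miR-99a-3p, let-7c-5p and let-7c-1-3p, overlapped between the groups. At a level of 0.95, the intervals derived from edgeR's F test for their log2 fold changes were -0.30 to 0.48, -0.14 to 0.22 and -0.27 to 0.31. Each interval contains the values of the 3 members, 0.20, 0.21 and 0.19, and let-7c-5p also comes from a hairpin elsewhere. Whether the arms of the cluster changed together was not tested.

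miR-99a-5p, the 5p arm of the first chromosome 16 hairpin, was at 9511, 8805 and 9584 CPM in EV 1 to 3 and at 10124, 11631 and 10382 CPM in KO 1 to 3. The highest library was KO 2, and the lowest KO library lay above the highest EV library. The mean was 9300 ± 430 CPM in EV and 10712 ± 806 in KO (SD, n = 3 each). The log2 fold change was 0.20 (SE 0.087, 95% interval 0.01 to 0.40), with an edgeR p of 0.0423 and an adjusted p of 0.199. Without EV 3 and KO 2 it was 0.17, with an edgeR adjusted p of 0.337.

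miR-125b-5p, the mature product shared by both Mir125b copies, was at 2896, 2773 and 2958 CPM in EV and at 3382, 3509 and 3090 CPM in KO. The lowest KO library, KO 3, was still above every EV library. The means were 2875 ± 94.2 CPM in EV and 3327 ± 215 in KO (SD, n = 3 each). Its log2 fold change of 0.21 (SE 0.075, 95% interval 0.04 to 0.38) had an edgeR p of 0.0195 and an adjusted p of 0.132. Without EV 3 and KO 2 it was 0.20, with an edgeR adjusted p of 0.244.

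miR-125b-5p was also the only member in the authors' deposited table of 78 microRNAs past their threshold. That authors' deposited table gives mean normalized counts of 36334 in EV and 41506 in KO, a log2 fold change of 0.19 and an adjusted p of 0.0363, which ranked 70th of the 78. DESeq2 run here on the deposited counts gave miR-125b-5p a log2 fold change of 0.20 and an adjusted p of 0.0846. The size of the change was thus nearly equal in the 2 tables and in edgeR's fit, and the side of the 0.05 threshold was not.

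miR-125b-2-3p, the arm that only the chromosome 16 copy makes, was at 205, 189 and 194 CPM in EV and at 215, 235 and 222 CPM in KO. The groups were separated by a small gap, between EV 1 and KO 1. The means were 196 ± 8.44 CPM in EV and 224 ± 9.86 in KO (SD, n = 3 each). Its log2 fold change was 0.19 (SE 0.074, 95% interval 0.03 to 0.36), with an edgeR p of 0.0277 and an adjusted p of 0.166. Without EV 3 and KO 2 it was 0.16, with an edgeR adjusted p of 0.413.

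The last chromosome 16 member, miR-99a-3p, is the minor arm of Mir99a and was counted only 74 to 83 times in a library. It was at 4.97, 6.04 and 7.41 CPM in EV and 6.73, 6.14 and 6.63 CPM in KO, and the KO libraries lay inside the EV range. Its log2 fold change was 0.09 (SE 0.173, edgeR adjusted p = 0.788), and 0.29 (SE 0.227, edgeR adjusted p = 0.458) without EV 3 and KO 2.

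The members that only chromosome 9 makes overlapped between the groups, and miR-125b-5p, which it makes together with chromosome 16, is given above. miR-100-5p, which differs from miR-99a-5p by 1 base, was at 9096, 8558 and 9487 CPM in EV and 9008, 9823 and 9272 CPM in KO. The groups overlapped, and its log2 fold change was 0.05 (SE 0.081, 95% interval -0.13 to 0.23, edgeR adjusted p = 0.748), and also 0.05 without EV 3 and KO 2. miR-125b-1-3p, the arm that only the chromosome 9 copy makes, was at 308, 269 and 262 CPM in EV and 247, 291 and 290 CPM in KO. EV 1 was its highest and KO 1 its lowest library, with a log2 fold change of -0.02 (SE 0.094, 95% interval -0.23 to 0.19, edgeR adjusted p = 0.936), and -0.10 without EV 3 and KO 2. miR-100-3p rested on 21 to 36 reads in a library, at 2.04, 2.94 and 1.87 CPM in EV and 2.92, 1.83 and 2.29 CPM in KO. On these few reads and 3 libraries a group, the 95% interval of its log2 fold change of 0.04 ran from -0.55 to 0.64 (edgeR adjusted p = 0.951). Changes within that interval are compatible with these counts. The log2 fold change of miR-100-3p was 0.09 without EV 3 and KO 2.

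The 4 members of the compact chromosome 17 cluster also overlapped between groups. miR-99b-5p was at 7561, 6150 and 5790 CPM in EV and 5992, 5689 and 6925 CPM in KO, EV 1 being the highest. Its log2 fold change was -0.07 (SE 0.117, 95% interval -0.33 to 0.19, edgeR adjusted p = 0.767), 0.06 without EV 1 and -0.08 without EV 3 and KO 2. Its 3p partner, miR-99b-3p, was at 238, 193 and 172 CPM in EV and 175, 187 and 218 CPM in KO. The same libraries, EV 1 and KO 3, were the highest of their groups for both arms of Mir99b, and the log2 fold change of miR-99b-3p was -0.06 (SE 0.127, edgeR adjusted p = 0.817), 0.08 without EV 1 and -0.13 without EV 3 and KO 2.

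miR-125a-5p, the minor 5p arm of the miR-125 seed family, was at 371, 353 and 452 CPM in EV and 420, 408 and 392 CPM in KO. Its KO libraries lay inside the EV range, with a log2 fold change of 0.05 (SE 0.096, 95% interval -0.16 to 0.27, edgeR adjusted p = 0.771), and 0.17 (SE 0.109, edgeR adjusted p = 0.328) without EV 3 and KO 2. miR-125a-3p was at 23.2, 19.8 and 18.9 CPM in EV and 21.0, 24.5 and 21.5 CPM in KO. Here EV 1 overlapped KO, and the log2 fold change was 0.11 (SE 0.144, edgeR adjusted p = 0.666), or -0.02 without EV 3 and KO 2.

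**Figure D3:**
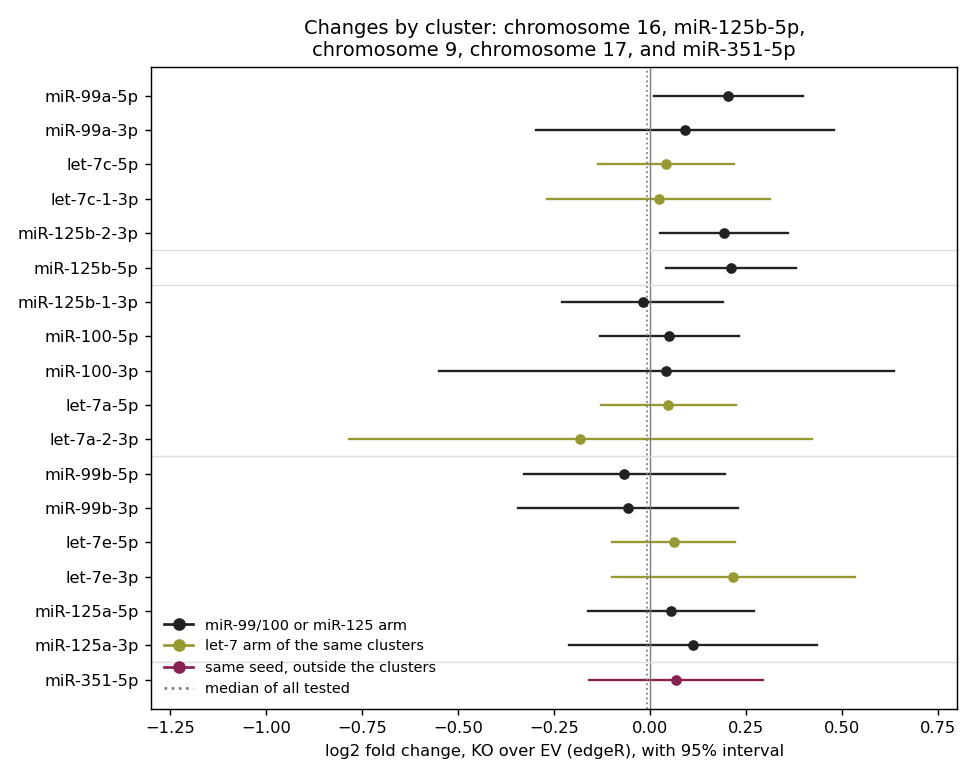
Log2 fold changes of KO over EV with 95% intervals derived from edgeR's F test, ordered by cluster, with the let-7 arms of the same clusters and miR-351-5p. The dotted line is the median of all tested, -0.01. The intervals of miR-99a-5p, miR-125b-2-3p and miR-125b-5p lie above 0, and none of the microRNAs shown passed the adjusted threshold.

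Summed over a seed, the families differed little between groups. The 3 miR-99/100 5p arms summed to 26169, 23514 and 24861 CPM in EV and 25125, 27144 and 26578 CPM in KO. These groups overlapped, with means of 24848 ± 1327 and 26282 ± 1041 CPM (SD, n = 3 each) and a log2 difference of 0.08. The 2 miR-125 5p arms summed to 3266, 3125 and 3410 CPM in EV and 3801, 3917 and 3482 CPM in KO. Here every KO library lay above every EV library, at means of 3267 ± 142 and 3733 ± 225 CPM (SD, n = 3 each) and a log2 difference of 0.19. The differences were 0.06 and 0.19 without EV 3 and KO 2. miR-125b-5p made up 86.7 to 89.6% of the miR-125 sum, so the separation of that sum largely repeats the one of miR-125b-5p itself. No test was made on these sums.

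Within the miR-99/100 5p arms, the share of miR-99a-5p was 36.3, 37.4 and 38.5% in EV and 40.3, 42.9 and 39.1% in KO. The groups did not overlap, and KO 2 had the highest share. The share of miR-100-5p was 34.8 to 38.2% in EV and 34.9 to 36.2% in KO, and that of miR-99b-5p 23.3 to 28.9% in EV and 21.0 to 26.1% in KO. Both of these overlapped between groups. Within the miR-125 5p arms miR-125b-5p took most of the counts, with 86.7 to 88.7% in EV and 88.7 to 89.6% in KO.

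Ratios between 2 microRNAs of 1 library do not depend on how libraries are scaled, and 16 were compared. With 3 libraries against 3, an exact permutation test cannot go below p = 0.10 (two-sided), so none could pass 0.05. The groups did not overlap in 3 of the 16, each at that smallest p of 0.10 and at an adjusted p of 0.533 over the 16. Each of these 3 holds miR-125b-5p or miR-125b-2-3p, whose own groups did not overlap. The ratios and those rows are therefore not separate observations.

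The first of the 3 compares the 2 Mir125b copies by the arms unique to each, a ratio chosen after the counts had been seen. miR-125b-1-3p over miR-125b-2-3p was 1.499, 1.43 and 1.35 in EV 1 to 3 and 1.15, 1.24 and 1.31 in KO 1 to 3. The chromosome 9 arm exceeded the chromosome 16 arm in all 6 libraries, and by less in KO (log2 difference -0.21, exact p = 0.10). The gap between the groups, from EV 3 to KO 3, was small. The log2 difference was -0.26 without EV 3 and KO 2.

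The other two pair miR-125b-5p with a neighbour. miR-100-5p over miR-125b-5p, both of which come from the chromosome 9 cluster, was 3.14, 3.09 and 3.21 in EV and 2.66, 2.80 and 3.00 in KO (log2 difference -0.16, exact p = 0.10). miR-125b-5p over let-7c-5p was 1.24, 1.05 and 1.11 in EV and 1.27, 1.29 and 1.25 in KO (log2 difference 0.17, exact p = 0.10). In both, miR-125b-5p stood higher against its neighbour in every KO library. These differences were -0.14 and 0.14 without EV 3 and KO 2. By contrast miR-99a-5p over miR-125b-5p, the outer pair of the chromosome 16 cluster, was 3.28, 3.18 and 3.24 in EV and 2.99, 3.31 and 3.36 in KO (log2 difference -0.0066, exact p = 1). On chromosome 17, miR-99b-5p over miR-125a-5p was 12.8 to 20.4 in EV and 14.0 to 17.6 in KO, and EV 1 and EV 3 were its extremes (log2 difference -0.12, exact p = 0.70).

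The 5p arm was the major product of Mir99a, Mir100, Mir99b and Mir125a, by very different margins. The 3p arm was 0.0526 to 0.0777% of the 5p arm for Mir99a and 0.0191 to 0.0348% for Mir100, but 2.92 to 3.29% for Mir99b and 4.20 to 6.28% for Mir125a. For Mir125b-1 and Mir125b-2, whose 5p counts are pooled in miR-125b-5p, the 3p arms were 7.31 to 10.6% and 6.37 to 7.18% of it. The arm ratio of either copy alone is therefore not known. The 3 hairpins of the miR-99/100 family thus differed widely in arm ratio although their 5p arms share a seed and nearly all bases. None of the 6 arm ratios separated the groups. The nearest was Mir125b-1, at 10.6, 9.72 and 8.87% in EV and 7.31, 8.29 and 9.40% in KO (log2 difference -0.23, exact p = 0.20).

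**Figure D4:**
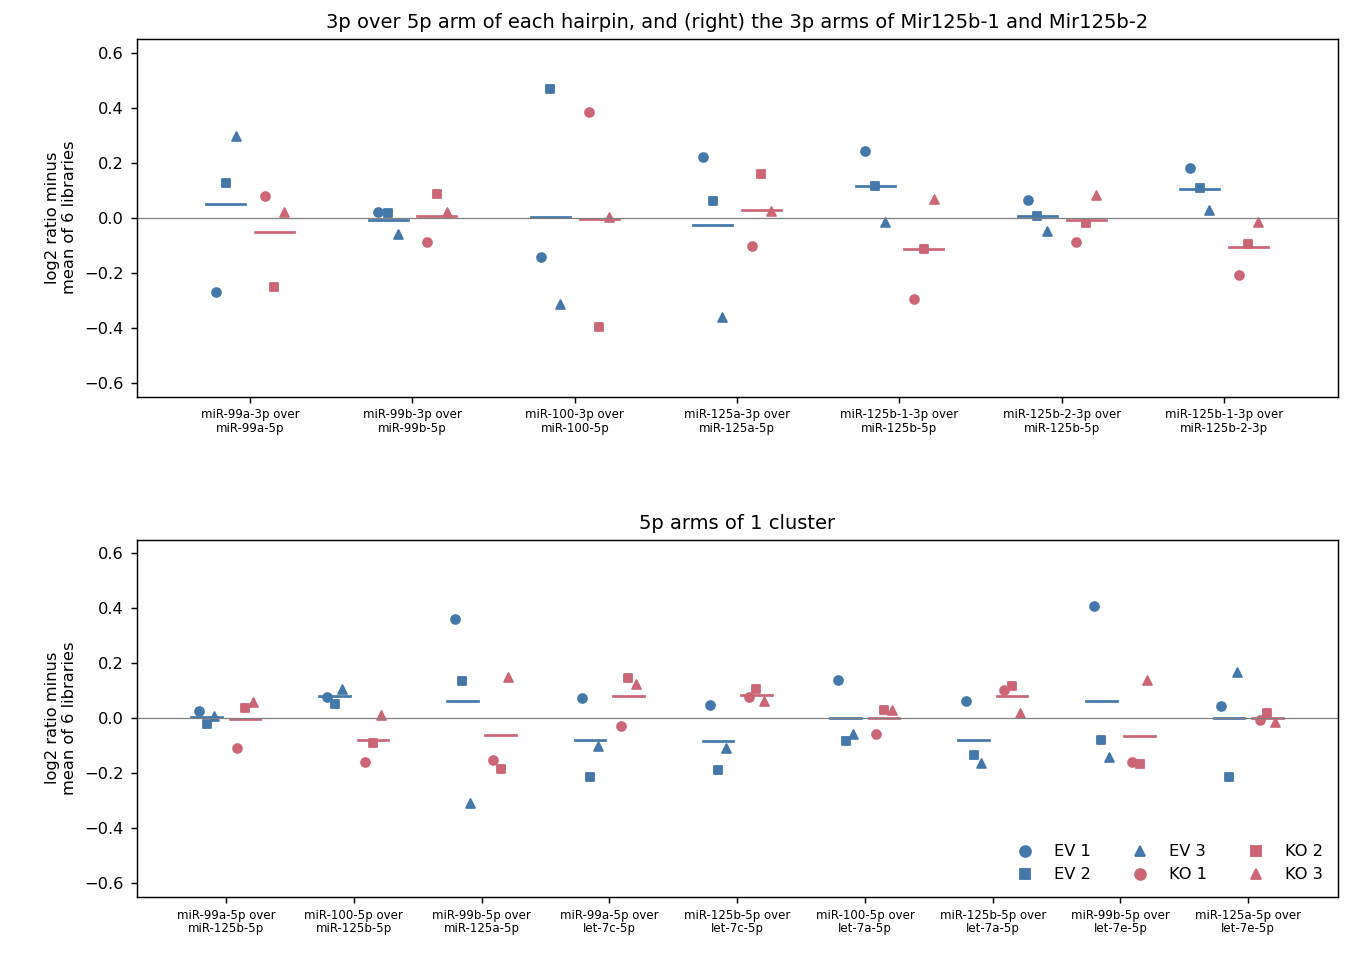
Log2 ratios of arms and cluster partners in each library, minus the mean of the 6 libraries for that ratio; bars are group means. The groups do not overlap for miR-125b-1-3p over miR-125b-2-3p, miR-100-5p over miR-125b-5p and miR-125b-5p over let-7c-5p, each at the smallest exact p of 0.10.

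The let-7 arms that lie in the same clusters did not pass the test either. edgeR, DESeq2 and limma-voom each called 0 of 6, where they called 7.61, 10.4 and 8.26% of all tested. At an unadjusted p under 0.05 edgeR gave 0 of 6, against 23.0% of all tested. The log2 fold changes ran from -0.18 to 0.22 with a median of 0.04. let-7c-5p, the chromosome 16 neighbour of miR-99a, was at 2338 to 2656 CPM in EV and 2465 to 2717 CPM in KO (log2 fold change 0.04). Its 3p arm from the same hairpin, let-7c-1-3p, was counted 129 to 179 times in a library (log2 fold change 0.02). let-7a-5p was at 1307 to 1561 CPM in EV and 1438 to 1523 CPM in KO (log2 fold change 0.05), and let-7a-2-3p, from chromosome 9 alone, at 1.72 to 2.61 and 1.54 to 2.29 CPM (-0.18, SE 0.268). let-7e-5p, between Mir99b and Mir125a, was at 625 to 712 CPM in EV and 690 to 734 CPM in KO (log2 fold change 0.06). let-7e-3p was the only one of the 6 with non-overlapping groups, against 29.1% of all tested, and was counted 72 to 119 times in a library. It was at 6.42 to 7.58 CPM in EV and 7.78 to 8.37 CPM in KO (log2 fold change 0.22, SE 0.141, edgeR adjusted p = 0.381). Without EV 3 and KO 2 the 6 ran from -0.15 to 0.14, and edgeR again called 0, where it called 18.7% of all tested.

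Of the 15 other let-7 and miR-98 rows, 12 were tested. edgeR, DESeq2 and limma-voom each called 0 of them, where they called 7.61, 10.4 and 8.26% of all tested. The log2 fold changes ran from -0.93 to 1.14 with a median of 0.03. In edgeR 2 of the 12 had an unadjusted p under 0.05, against 23.0% of all tested. These were let-7f-1-3p and let-7f-5p, which, like let-7j, are named after their values were seen. Other settings called 3 of the 12. let-7f-1-3p was higher in KO with the replicate block (log2 fold change 1.15, edgeR adjusted p = 0.0344) and without a filter (1.11, edgeR adjusted p = 0.0219), on 7 to 38 reads in a library. let-7j, on 12 to 60 reads, was lower without a filter (-0.96, edgeR adjusted p = 0.0169) and without EV 3 and KO 2 (-1.35, edgeR adjusted p = 0.0252). let-7f-5p, at 5877 to 8228 CPM, was higher without EV 3 and KO 2 (0.31, edgeR adjusted p = 0.0458). miR-351-5p, the 1 other row found with the miR-125 seed among the 849 with a matched sequence, was at 767, 603 and 759 CPM in EV and 693, 736 and 802 CPM in KO. The groups overlapped, and the log2 fold change was 0.07 (edgeR adjusted p = 0.714), or 0.13 without EV 3 and KO 2. With it, the CCCUGAG seed summed to 3728 to 4169 CPM in EV and 4285 to 4653 CPM in KO.

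The 3 microRNAs outside the families whose log2 CPM followed miR-99a-5p most closely, out of 240 with at least 10 CPM, were miR-501-3p (Pearson r 0.92), miR-221-3p (0.92) and miR-24-2-5p (0.91). Those nearest to miR-125b-5p were miR-1843a-5p (0.96), miR-192-5p (0.95) and miR-1843b-5p (0.95). These r are descriptions over 6 libraries that share the group difference and the scaling, and the highest of 240 are high by selection. All 6 microRNAs had KO libraries above their EV libraries, and miR-24-2-5p was the only one of them that passed the test. It was at 140, 130 and 124 CPM in EV and 171, 207 and 178 CPM in KO (log2 fold change 0.49, SE 0.094, edgeR adjusted p = 0.0126).

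The log2 fold changes of miR-99a-5p, miR-125b-5p and miR-125b-2-3p were above 0 in all 15 other settings tried. As their groups do not overlap, leaving out libraries could hardly turn that sign, so it is no sign of stability. No member passed the adjusted threshold in any of the 15. The lowest adjusted p among members was 0.0846, for miR-125b-5p with DESeq2. Scaling by library size alone called 1.09% of the table and 0 members, and moved the median of all tested from -0.01 to -0.16. It put miR-99a-5p at 0.05, miR-125b-5p at 0.05 and miR-125b-2-3p at 0.03. That setting shifted every member by a similar amount, -0.14 to -0.18, so a place above the median under it is no sign of stability either. Each of the other 8 members took the opposite sign in at least 1 of the settings.

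**Figure D5:**
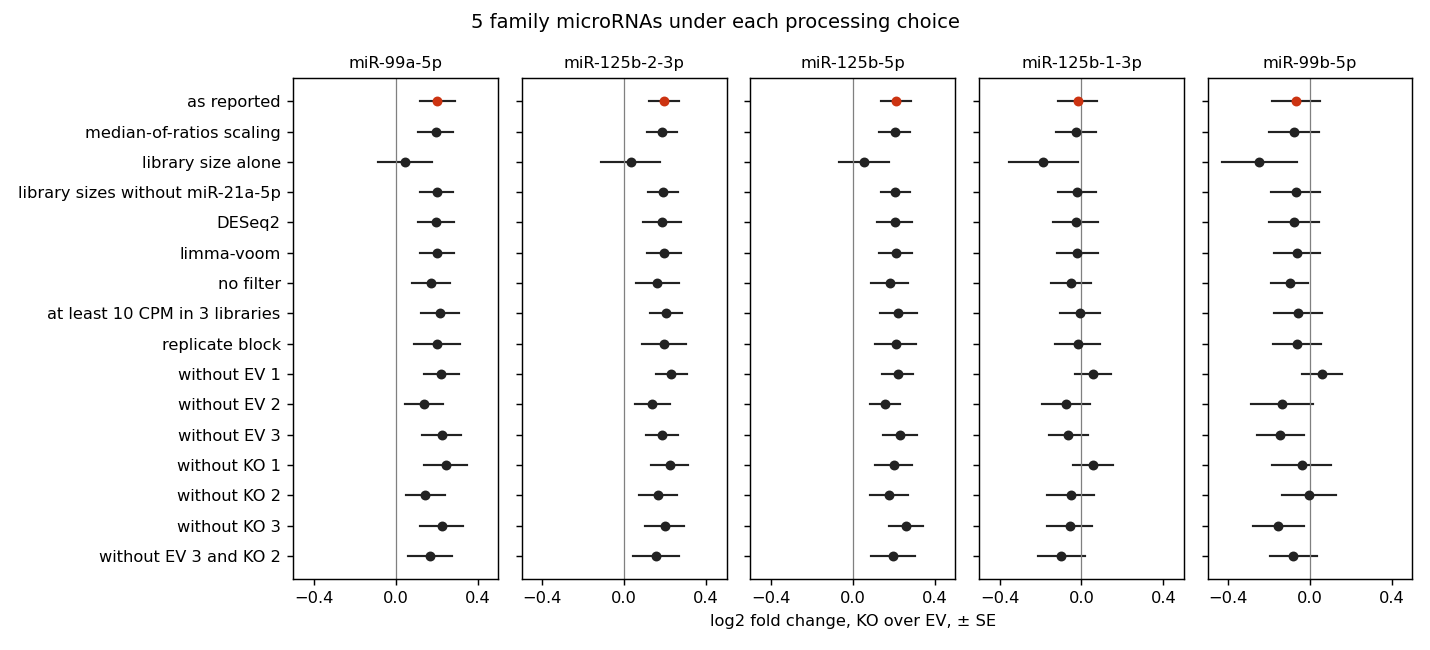
Log2 fold change (± SE) of miR-99a-5p, miR-125b-2-3p, miR-125b-5p, miR-125b-1-3p and miR-99b-5p as reported (red) and under each other setting (rows). The first 3 stay above 0 in every row, miR-125b-1-3p and miR-99b-5p lie on either side of 0, and scaling by library size alone shifts all 5 to lower values.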

How the data were processed

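The authors' deposited table gives whole-number read counts per mature microRNA, with a TPM beside each count, which is the count scaled to a common library total, without a length term, and was not tested. The submitters' processing notes name Bowtie, the mm10 build and DESeq 1.8.3, whereas DESeq2 is named in the design text of the series. The authors' deposited comparison table lists microRNAs past their threshold. The authors give there, for each group, the mean of normalized counts as a signal with no spread, and for KO over EV the log2 fold change with its p-value before and after adjustment.

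KO was compared with EV on the counts of all microRNAs with edgeR 4.0.16 in R 4.3.3 (filterByExpr with minimum count 10 and minimum total 15, TMM factors, two-sided quasi-likelihood F test, Benjamini-Hochberg adjustment over the 460 that passed, threshold 0.05). DESeq2 1.42.0 and limma 3.58.1 (voom) were alternatives, beside other scalings, filters, a replicate block and each library left out. The fit was tested on simulated data. "Called" and "passed" refer to that adjusted threshold. Ratios used counts plus 0.5 and exact permutation tests. PCR copies count as reads, and no 2 libraries of a group were alike within counting noise.

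Every row of both families, of the let-7 arms in their clusters and of any other microRNA found to share a seed with them, among the 849 of 1028 rows with a matched sequence, is named, and the 3 microRNAs most correlated with the most abundant member of each seed family (mean of at least 10 CPM). Members and lists were chosen with earlier results of these data known. The copy ratio, and leaving out EV 3 and KO 2 for ratios and sums, were added after the data were seen.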

Additional observations from a re-analysis of the deposited data

How the results depend on the processing

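No member was called in any of the 15 other settings, in which 5 to 88 microRNAs of the whole table were called, and at least 10 CPM in 3 libraries left 9 members tested. With scaling by library size alone, log2 fold changes turned to -0.12 for miR-100-3p, -0.10 for miR-100-5p, -0.059 for miR-125a-3p, -0.092 for miR-125a-5p, -0.049 for miR-99a-3p, -0.11 for let-7c-5p, -0.14 for let-7c-1-3p, -0.10 for let-7a-5p, -0.090 for let-7e-5p and -0.093 for miR-351-5p, and the summed levels moved to -0.067 for miR-99/100 and 0.043 for miR-125; that setting put the median of all tested at -0.16. Without a filter let-7c-1-3p was at -0.0074. Without EV 3 and KO 2, miR-125a-3p turned to -0.016, the arm ratios to 0.12 for Mir99a, -0.053 for Mir99b, 0.031 for Mir100 and -0.18 for Mir125a, and the partner ratios to -0.042 for miR-100-5p over let-7a-5p and 0.074 for miR-125a-5p over let-7e-5p. Among the other let-7 and miR-98 arms, 2 were called without a filter (let-7f-1-3p higher, let-7j lower), 1 with the replicate block (let-7f-1-3p higher) and 2 without EV 3 and KO 2 (let-7f-5p higher, let-7j lower), where 5.45, 7.39 and 18.7% of all tested were called. The cause was not tested for any of these.

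With each library left out in turn, log2 fold changes crossed 0 for miR-100-3p (-0.14 to 0.23), miR-100-5p (-0.015 to 0.084), miR-125a-5p (-0.041 to 0.17), miR-125b-1-3p (-0.076 to 0.058), miR-99a-3p (-0.043 to 0.24), miR-99b-3p (-0.16 to 0.085), miR-99b-5p (-0.16 to 0.058), let-7c-5p (-0.013 to 0.081), let-7a-5p (-0.012 to 0.11) and miR-351-5p (-0.064 to 0.13). Log2 differences in ratios crossed 0 for Mir99a (-0.26 to 0.021), Mir99b (-0.026 to 0.060), Mir100 (-0.20 to 0.23), Mir125a (-0.11 to 0.18), Mir125b-2 (-0.062 to 0.024), miR-99a-5p over miR-125b-5p (-0.038 to 0.046), miR-99b-5p over miR-125a-5p (-0.31 to 0.025), miR-100-5p over let-7a-5p (-0.041 to 0.070), miR-99b-5p over let-7e-5p (-0.23 to 0.046) and miR-125a-5p over let-7e-5p (-0.11 to 0.083). The summed levels ranged from 0.043 to 0.12 for miR-99/100 and from 0.16 to 0.24 for miR-125.

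The labels number the replicates without saying whether libraries of the same number were prepared together. Deviations of EV and KO libraries of the same number correlated at 0.26, -0.11 and -0.25. Those of different numbers ran from -0.45 (EV 1 with KO 2) to 0.45 (EV 3 with KO 2). With 3 libraries a group, these correlations cannot decide whether the numbers mark pairs. With the replicate block, edgeR called 34 microRNAs against 35, 0 of them members, and miR-125b-5p had a log2 fold change of 0.21 and an adjusted p of 0.220. With 3 libraries a group the ratio tests could not pass 0.05, and at 21 to 36 reads the interval of miR-100-3p was the widest among members.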
